A study of Mus musculus with 9 samples.

Results

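The 9 genes described here are hormone receptors and genes of hormone-sensing luminal cells of the mammary gland: *Esr1*, *Pgr*, *Prlr*, *Foxa1*, *Gata3*, *Cited1*, *Tnfsf11*, *Greb1* and *Prom1*. They were chosen by name, with earlier results of these data known, and are 9 of the 35275 genes counted. RNA was sequenced from 9 mammary gland tumors of Brca1Co/Co;MMTV-Cre;p53+/- mice, 3 from mice given saline, 3 from mice given free Talazoparib (TLZ, a PARP inhibitor) by intravenous injection and 3 from mice given NanoTLZ, its nanoparticle formulation. Treatment began at a tumor diameter of 4 to 5 mm and ran for 5 doses, 3 times a week, with 0.33 mg/kg Talazoparib in both treated groups. All 3 groups carry the same genotype, in which Cre made from the MMTV promoter deletes the conditional Brca1 allele in mammary epithelium and, as is known of this promoter, in some other tissues, beside heterozygous loss of p53. The labels give no age, and no group of mice without tumors was measured. No tumors of mice given empty nanoparticles were sequenced, so drug and carrier cannot be told apart in the NanoTLZ group. Tumors are numbered within a group in order of their records, and a number shared between groups pairs nothing. P-values measure the spread between these tumors.

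In the mammary gland, estrogen acts on luminal cells that carry the estrogen receptor, and these cells pass the signal to their neighbours through secreted factors. Foxa1 and Gata3 are transcription factors that let the estrogen receptor reach its sites, and the progesterone receptor and Greb1 are classical products of estrogen receptor activity. Tumors that form after loss of Brca1 are known for low estrogen and progesterone receptor levels and for a likeness to luminal progenitor cells.

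Total counts per tumor were 17538380 to 21194980, and values are counts scaled to a common library size (CPM) after scaling of the libraries by TMM. *Epcam* and *Krt8*, which mark luminal epithelium, were at 604 to 1368 CPM and 738 to 2623 CPM, so the labelled tissue held epithelium in every tumor. The saline tumor 3 stood apart in some of its basal and luminal keratins. There *Krt5*, a basal keratin, was at 1849 CPM against at most 72.9 CPM in the other tumors. *Krt19*, a luminal keratin, was at 31.2 CPM against at least 173 CPM. *Krt17* was also highest there and *Krt7* lowest, at 693 and 76.25 CPM. The basal *Krt14* (802 CPM) and the luminal *Krt8* (955 CPM) and *Krt18* (646 CPM) lay within the range of the other tumors. The summed level of 6 skeletal muscle markers was 20.9 to 644 CPM in saline and 1.70 to 4.04 CPM in the treated tumors. *Brca1* transcripts were at 29.6 to 42.7 CPM in saline, 9.46 to 31.5 CPM in i.v. TLZ and 18.2 to 19.8 CPM in NanoTLZ, and a count over the whole gene does not show which exons were read. The part of these differences in the results below was not tested. In tumor pieces, fewer cells of a type and less RNA per cell cannot be told apart.

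The levels of the 9 genes spanned a wide range (the plot of levels per length). Per kilobase of exon, *Gata3* was highest, at 10.01 ± 4.50 CPM per kb (SD over 9 tumors), and ranked first of the 9 genes in 8 of 9 tumors. *Prom1*, a membrane protein of hormone-sensing luminal cells and of stem-like cells, followed at 5.73 ± 3.96 CPM per kb. *Prlr*, the prolactin receptor, came next at 2.76 ± 2.83 CPM per kb. These 3 genes were the upper set, and only *Gata3* and *Prom1* lay above the middle of all 15821 tested genes, at percentiles 67.2 and 53.3. The other 6 genes had low levels, from 0.894 ± 1.84 CPM per kb for *Pgr* to 0.260 ± 0.335 CPM per kb for *Greb1*, with *Cited1* at 0.753, *Foxa1* at 0.745, *Tnfsf11* at 0.514 and *Esr1* at 0.412 CPM per kb. *Esr1*, the estrogen receptor, stood at percentile 10.5 and *Greb1* at percentile 6.35. The length used joins all annotated exons of a gene, 13661 bases for *Esr1* and 1754 for *Cited1*, and the order depends on it. By CPM alone, the mean of *Esr1* (5.63) lay above those of *Foxa1* (2.48), *Cited1* (1.32) and *Tnfsf11* (1.15). In the order per kilobase, each gene overlapped its neighbour in range over the tumors. The mean overstates *Pgr*, which stood above *Cited1*, the gene after it, in only 1 of 9 tumors.

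**Figure D1:**
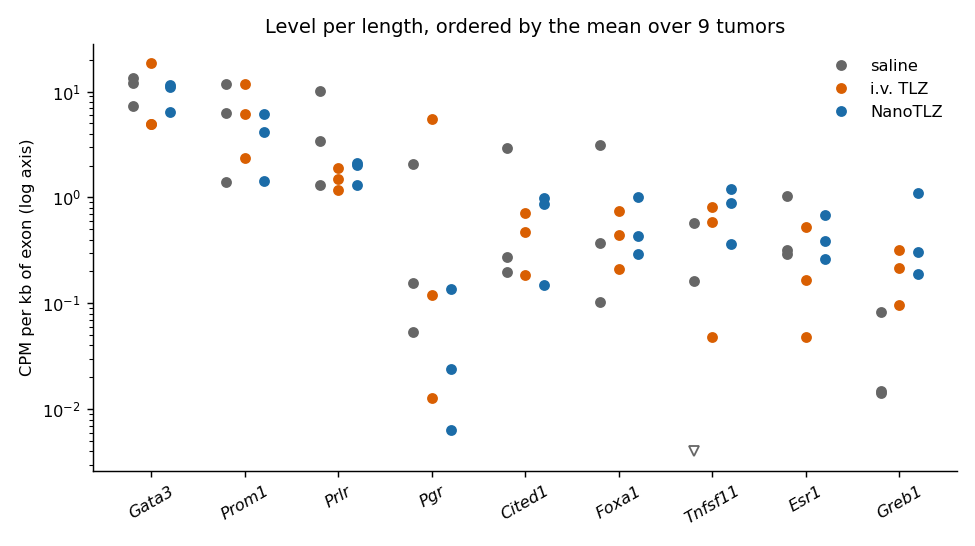
Level per length of the 9 genes in each tumor, in CPM per kb of exon on a log axis, with genes ordered by their mean over 9 tumors and points coloured by group. The open triangle marks the saline tumor in which *Tnfsf11* had 0 counts, and 2 i.v. TLZ points of *Gata3* lie on each other. *Gata3* is highest, *Pgr* spreads most, and the saline points of *Greb1* lie below all its treated points.

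The genes also differed in how far they spread between tumors. The SD of log2 CPM over the 9 tumors was 2.81 for *Pgr*, which is larger than in 99.8% of tested genes, against a median of 0.55 over all of them. *Greb1*, at 1.78, and *Tnfsf11*, at 1.62, followed at percentiles 97.0 and 95.8. *Gata3* had the smallest SD of the 9 genes, 0.67, at percentile 63.1. These percentiles are not matched for level, and counting error widens log2 values at low counts. By level per length, *Pgr* stood at percentile 19.2, *Greb1* at 6.35 and *Tnfsf11* at 12.8. The part of counting error in these spreads was not tested.

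The question the design poses is whether i.v. TLZ or NanoTLZ changed the tumors, and whether they differed. All 9 genes passed the filter on low counts. *Greb1*, with 14, 3 and 3 reads in the saline tumors, and *Tnfsf11*, with 0, 27 and 8, passed it through the treated tumors. No member was called at an adjusted p under 0.05 by edgeR's quasi-likelihood test in any of the 4 comparisons: 0 of 9 with i.v. TLZ against saline, where 0% of all tested genes were called, 0 of 9 with NanoTLZ against saline (0.00632%), 0 of 9 with both treatments against saline (0.019%) and 0 of 9 with NanoTLZ against i.v. TLZ (0%). At an unadjusted p under 0.05, 2 of 9 passed in the comparison of i.v. TLZ with saline, where 10.4% of all genes did, and these were *Greb1*, higher, and *Prlr*, lower. The same 2 genes passed with NanoTLZ against saline, where 8.99% of all genes did, and with both treatments against saline, where 13.1% did. Only *Pgr*, lower, passed in NanoTLZ against i.v. TLZ, where 1.68% of all genes did. DESeq2 called 1 member, *Greb1*, in NanoTLZ against saline, both on all 9 tumors, where it called 0.712% of genes, and on the groups compared, where it called 1.05%. It called *Greb1* again with both treatments against saline, where it called 1.53% of genes. It called 0 members in i.v. TLZ against saline (1.12% of genes on all 9 tumors and 0.534% on the groups compared) and 0 in NanoTLZ against i.v. TLZ (0.0119% and 0.127%). DESeq2 gave *Pgr* no p-value in any comparison on all 9 tumors, nor on the groups compared except in NanoTLZ against saline (adjusted p = 0.108), so *Pgr* was not tested there. The saline tumors are shared by the comparisons with saline.

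**Figure D2:**
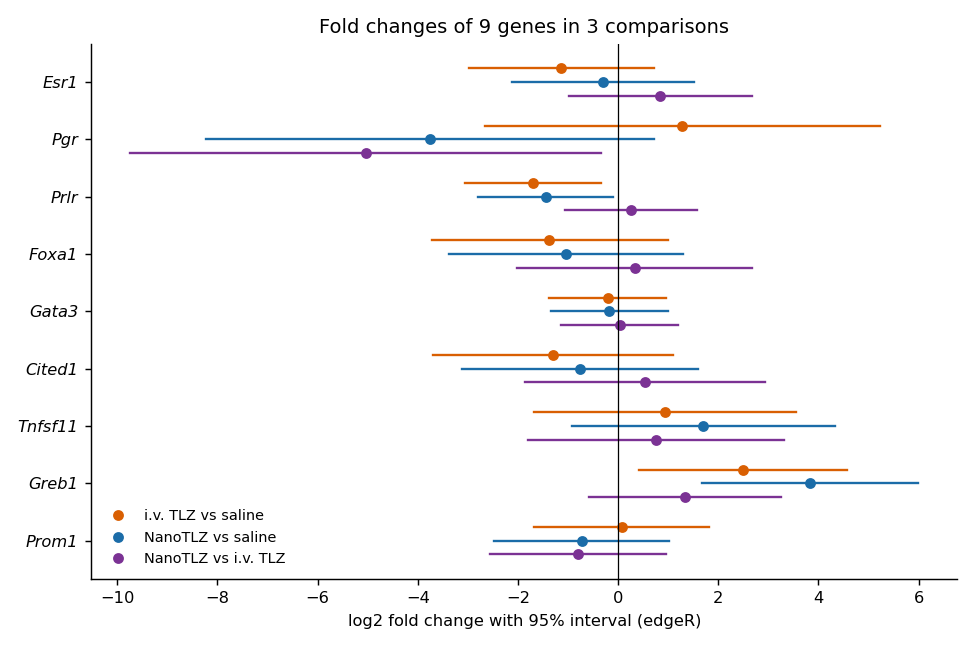
Log2 fold changes of the 9 genes in i.v. TLZ against saline, NanoTLZ against saline and NanoTLZ against i.v. TLZ, as points with 95% intervals from edgeR. The intervals of *Greb1* lie above 0 and those of *Prlr* below 0 in both comparisons with saline, without adjustment over genes. The widest intervals are those of *Pgr*.

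Across the members, the median log2 fold change was -0.21 with i.v. TLZ against saline, -0.73 with NanoTLZ against saline and -0.72 with both treatments, against medians of -0.03, -0.09 and -0.06 over all genes tested. In the comparison of NanoTLZ with i.v. TLZ, the members' median was 0.33 and that of all genes -0.04. Of the 9 genes, 4 were higher and 5 lower with i.v. TLZ and 2 higher and 7 lower with NanoTLZ. *Greb1* and *Tnfsf11* were the 2 genes with a positive value in both. Between NanoTLZ and i.v. TLZ at the same dose, the values other than that of *Pgr* lay between -0.80 (*Prom1*) and 1.33 (*Greb1*), each with a 95% interval that held 0.

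*Greb1* was the 1 member whose treated tumors all lay apart from the saline tumors. It encodes a cofactor of the estrogen receptor that is also a well known target of the receptor, and its gene spans chr12:16670615-16800886 on the minus strand (GRCm38, GENCODE M21). The saline tumors had 0.801, 0.143 and 0.138 CPM, which are 14, 3 and 3 reads. The i.v. TLZ tumors had 2.08, 3.06 and 0.920 CPM, from 43, 56 and 17 reads. The NanoTLZ tumors had 10.5, 2.95 and 1.81 CPM, from 219, 54 and 35 reads. The i.v. TLZ tumor 3 lay just above the saline tumor 1, while NanoTLZ tumor 1 stood far above every other tumor. Of all tested genes, 5.99% lay higher without overlap in i.v. TLZ, 7.82% in NanoTLZ and 2.81% in both treatments. No member lay lower without overlap in i.v. TLZ, NanoTLZ or both treatments, against 5.2%, 8.13% and 2.66% of all tested genes. Between NanoTLZ and i.v. TLZ, 0 of 9 members lay apart, against 3.2% of genes higher and 4.41% lower in NanoTLZ, or 7.61% either way. The log2 fold change against saline was 2.50 (SE 0.93) with i.v. TLZ, with an edgeR Benjamini-Hochberg adjusted p of 0.443. With NanoTLZ it was 3.83 (SE 0.97), with an unadjusted p of 0.00272 and an adjusted p of 0.552 in edgeR. DESeq2 on all 9 tumors gave 3.85 for that comparison, with an adjusted p of 0.00545. Over 15 alternatives by edgeR and DESeq2, including each tumor left out, the adjusted p for NanoTLZ against saline ranged from 0.00545 to 0.901. The value was 1.33 (SE 0.86) in NanoTLZ against i.v. TLZ, where the groups overlapped. With NanoTLZ against saline, the difference passed the threshold over all genes in DESeq2, and in edgeR it passed without adjustment alone. With i.v. TLZ against saline, the DESeq2 adjusted p was 0.161 on all 9 tumors and 0.326 on the groups compared. NanoTLZ tumor 1 also had the highest summed level of markers of adipocytes (66.5 CPM, against 5.85 to 32.2 CPM in the others). Its sum for B and plasma cells was also highest (40.5 CPM, against 1.14 to 25.6 CPM). The T cell sum was 34.3 CPM there, against 2.35 to 30.1 CPM. Of those markers, *Cd3e*, *Cd3g* and *Cd8a* were highest in NanoTLZ tumor 3 and *Cd3d* in i.v. TLZ tumor 1. The part of these cells in the *Greb1* level of NanoTLZ tumor 1 was not tested. Without that tumor, the log2 fold change in NanoTLZ was 2.73 against saline and 0.24 against i.v. TLZ.

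The 250 bases before the RefSeq starts of *Greb1* and *Pgr* are shown because both are known estrogen receptor targets and were the 2 members with a treated tumor standing far above the rest (RefSeq, GRCm38.p6, with the window written 5′ to 3′ on the gene's strand). Capitals mark the letters GGTCA or TGACC, the short element of the estrogen response sequence on either strand.

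*Greb1*, chr12:16800887-16801136, minus strand: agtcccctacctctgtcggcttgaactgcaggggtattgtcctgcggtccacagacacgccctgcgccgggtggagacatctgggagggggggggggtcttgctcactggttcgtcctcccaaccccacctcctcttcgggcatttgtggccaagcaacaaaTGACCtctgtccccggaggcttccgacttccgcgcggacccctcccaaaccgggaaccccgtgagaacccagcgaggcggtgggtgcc
*Greb1*, chr12:16757240-16757489, minus strand: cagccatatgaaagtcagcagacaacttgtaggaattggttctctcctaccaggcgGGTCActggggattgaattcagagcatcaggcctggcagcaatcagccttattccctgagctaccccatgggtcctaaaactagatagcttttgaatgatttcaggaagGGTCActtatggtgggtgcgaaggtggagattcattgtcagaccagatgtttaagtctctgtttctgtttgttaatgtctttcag
*Pgr*, chr9:8899583-8899832, plus strand: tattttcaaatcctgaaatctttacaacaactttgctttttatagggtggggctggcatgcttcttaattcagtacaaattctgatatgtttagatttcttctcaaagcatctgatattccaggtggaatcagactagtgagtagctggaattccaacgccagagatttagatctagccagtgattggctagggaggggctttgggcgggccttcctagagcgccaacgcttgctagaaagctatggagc

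The upstream *Greb1* window held the element 83 bases before the start, the window of its inner start held it 189 and 80 bases before, and the *Pgr* window held none. Whether the inner start of *Greb1* is used in these tumors was not tested. Windows of all 9 members were found, 16 in total. For those of *Prlr* at chr15:10223656-10223905 and of *Cited1* at chrX:102250777-102251026, the bases just after the start were in no GENCODE M21 transcript of their gene. For the others these bases lay somewhere in a transcript. That check does not tell a start from an inner exon, the inner start of *Greb1* included. The element was in 6 of the 16 and in 35.2% of all 32851 windows in the table. The full palindrome GGTCANNNTGACC was in 0 of 16 and in 0.0639% of all windows. The forkhead letters TGTTTAC, read on both strands, were in 2 of 16 windows (3.17% of all), the GATA letters AGATAA in 0 (9.99%), and the STAT letters TTCNNNGAA in 2 (7.02%). These are matches of letters, and no binding was measured.

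Among the receptors, *Esr1*, which encodes the estrogen receptor alpha (chr10:4611593-5005614, plus strand), had 13.96, 4.34 and 4.04 CPM in saline, 2.28, 0.656 and 7.20 CPM in i.v. TLZ, and 3.56, 5.29 and 9.31 CPM in NanoTLZ. Saline tumor 1 was highest, i.v. TLZ tumor 2 lowest, and all groups overlapped. The log2 fold change against saline was -1.14 (SE 0.83, 95% interval -2.98 to 0.71) with i.v. TLZ and -0.30 (SE 0.82, -2.11 to 1.52) with NanoTLZ. With single tumors left out, the first ranged from -2.32 (without i.v. TLZ tumor 3) to -0.30 (without saline tumor 1) and the other from -0.71 (without NanoTLZ tumor 3) to 0.56 (without saline tumor 1). Neither passed edgeR's test, at Benjamini-Hochberg adjusted p-values of 0.632 and 0.926. *Esr2*, the estrogen receptor beta, had at most 8 reads in a tumor and was below the filter.

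*Pgr*, the progesterone receptor (chr9:8899833-8968611, plus strand), was the most uneven of the 9 genes. The saline tumors had 0.458, 1.33 and 17.8 CPM, from 8, 28 and 388 reads. The i.v. TLZ tumors had 1.02, 46.6 and 0.108 CPM, from 21, 853 and 2 reads. The NanoTLZ tumors had 1.16, 0.0546 and 0.207 CPM, from 24, 1 and 4 reads. The single tumor i.v. TLZ 2 held 67.8% of the sum over 9 tumors. NanoTLZ tumors 1 and 3 lay within the range of the other groups, and NanoTLZ tumor 2 was lowest of all. The log2 fold change was 1.28 (SE 1.77) with i.v. TLZ, -3.76 (SE 2.01) with NanoTLZ and -5.04 (SE 2.11) between NanoTLZ and i.v. TLZ. Their Benjamini-Hochberg adjusted p-values in edgeR were 0.825, 0.584 and 1. Without i.v. TLZ tumor 2, the value for i.v. TLZ became -3.51 and that between the treatments became -0.24, so both rest on that tumor. The value of -3.76 for NanoTLZ against saline became -0.88 without saline tumor 3. With both treatments the fitted value was -1.24 although the mean CPM was higher in treated tumors, 8.20 against 6.53, since the fit averages the groups on a log scale.

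*Prlr* (chr15:10177238-10349180, plus strand) signals through Jak2 and Stat5 in alveolar and luminal cells. Saline tumors had 155, 20.1 and 52.8 CPM, i.v. TLZ tumors 22.8, 29.1 and 18.2 CPM, and NanoTLZ tumors 32.3, 20.2 and 31.1 CPM. The 6 treated tumors were close together, and saline tumors 1 and 3 lay above them while saline tumor 2 lay among them. The log2 fold change was -1.70 (SE 0.61) with i.v. TLZ and -1.44 (SE 0.60) with NanoTLZ, at adjusted p-values of 0.443 and 0.552 in edgeR's quasi-likelihood test. With both treatments it was -1.57 (SE 0.49), with an unadjusted p of 0.00966 and a Benjamini-Hochberg adjusted p of 0.284 in edgeR. Without saline tumor 1 these were -0.62, -0.35 and -0.49. That tumor also had the highest summed level of 8 luminal progenitor and alveolar markers, 7719 CPM against 656 to 4608 CPM in the others. *Ltf*, *Elf5*, *Csn2*, *Csn3* and *Lalba* were highest there, while *Kit* was highest in saline tumor 3 and *Aldh1a3* in saline tumor 2. *Ltf* made up most of the sum there, at 5835 CPM, and in i.v. TLZ tumor 1, at 4291 CPM. This sum was 656 to 7719 CPM in saline, 796 to 4608 CPM in i.v. TLZ and 1008 to 1564 CPM in NanoTLZ, and *Wap* was at or near 0 in every tumor (at most 0.325 CPM). Of the 8 markers, 7 were tested, and all 7 had a negative value with both treatments against saline. Their median was -1.12, against -0.06 over all genes tested. None was called by edgeR, and 3 had an unadjusted p under 0.05 in its test, as did 13.1% of all genes. These were *Kit*, *Elf5* and *Lalba*, and *Lalba* was at 28.55 CPM in saline tumor 1 and at most 1.42 CPM in the others. The part of luminal progenitor and alveolar cells in the *Prlr* values was not tested.

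**Figure D3:**
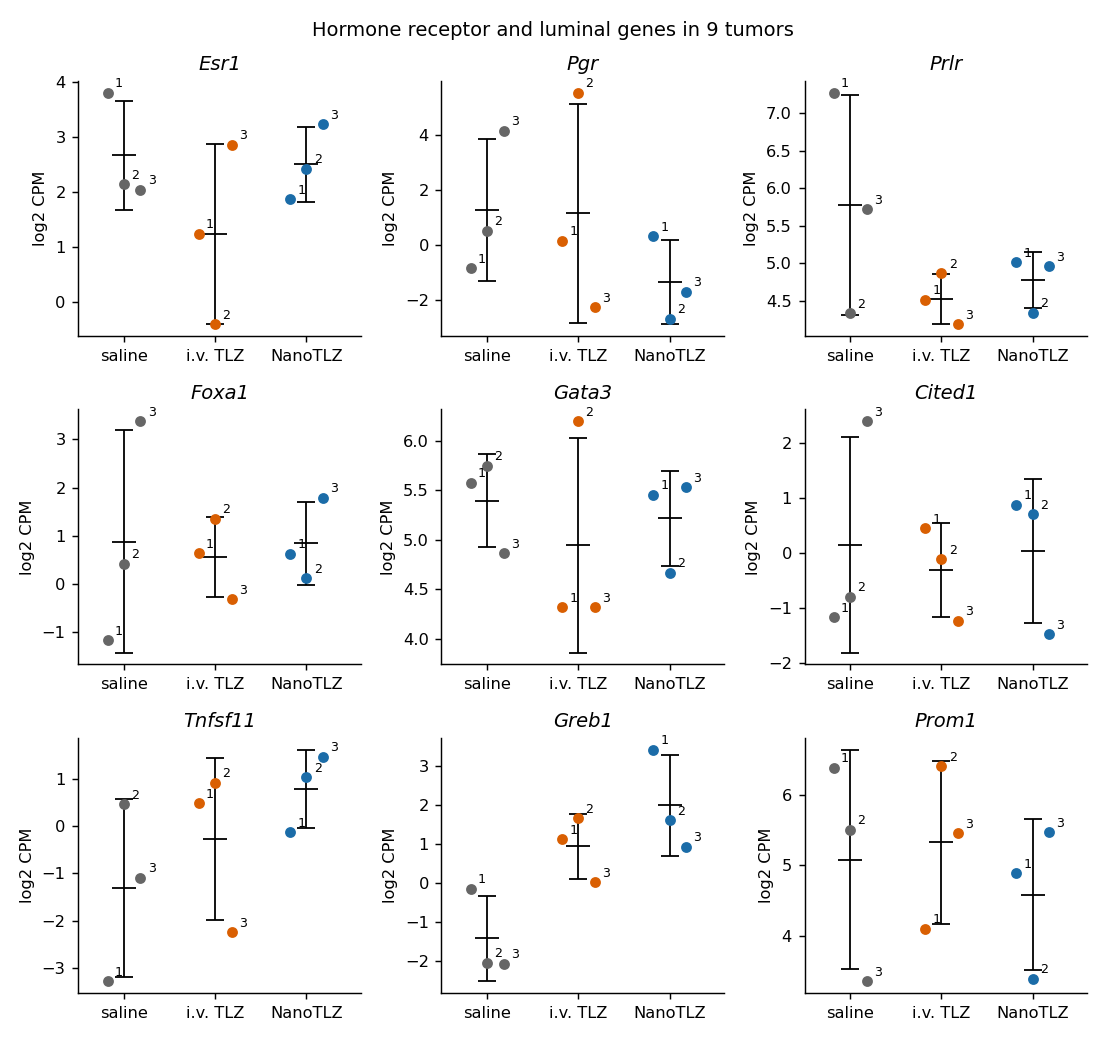
Log2 CPM of each of the 9 genes in each tumor, by group, with points numbered by tumor and bars for the group mean and SD. The vertical axis differs between genes and includes a prior count of 2. *Greb1* separates the 3 saline tumors from the 6 treated tumors, and in *Pgr*, *Foxa1* and *Cited1* the saline tumor 3 lies well above the other saline tumors.

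The transcription factors and the cofactor were at low levels apart from *Gata3*. *Gata3* (chr2:9857078-9890034, minus strand), which keeps luminal cells in their state, had 47.6, 53.7 and 29.0 CPM in saline, 19.8, 73.4 and 19.8 CPM in i.v. TLZ and 43.8, 25.3 and 46.2 CPM in NanoTLZ. The log2 fold changes against saline of -0.21 (SE 0.52, 95% interval -1.37 to 0.96) with i.v. TLZ and -0.18 (SE 0.52, -1.34 to 0.99) with NanoTLZ were small beside their intervals. *Foxa1* (chr12:57540628-57546916, minus strand), a pioneer factor of the estrogen receptor, had 0.343, 1.24 and 10.3 CPM in saline, 1.45, 2.46 and 0.703 CPM in i.v. TLZ and 1.44, 0.982 and 3.36 CPM in NanoTLZ. The saline tumor 3 was far above the rest. The log2 fold changes were -1.37 (SE 1.06) and -1.04 (SE 1.05), at adjusted p-values of 0.655 and 0.763 in edgeR's test, and became 0.95 and 1.29 without saline tumor 3. *Cited1* (chrX:102247381-102252181, minus strand), a cofactor of the estrogen receptor, had 0.343, 0.477 and 5.14 CPM in saline, 1.26, 0.820 and 0.325 CPM in i.v. TLZ and 1.73, 1.53 and 0.259 CPM in NanoTLZ. It too was highest in the saline tumor 3, and its values of -1.30 (SE 1.08) and -0.76 (SE 1.06) became 0.96 and 1.53 without that tumor.

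*Tnfsf11* and *Prom1* mark what hormone-sensing cells send or carry. *Tnfsf11* (chr14:78277445-78308043, minus strand) encodes RANKL, the signal that progesterone induces in luminal cells and that T cells also make. It had 0, 1.29 and 0.367 CPM in saline, 1.31, 1.80 and 0.108 CPM in i.v. TLZ, and 0.818, 1.97 and 2.69 CPM in NanoTLZ. Saline tumor 1 had 0 reads, where 3 reads would be 0.172 CPM, and the groups overlapped. Such limits cover counting error only. The log2 fold changes against saline of 0.94 (SE 1.17) and 1.70 (SE 1.18) did not pass edgeR's quasi-likelihood test, at adjusted p-values of 0.803 and 0.653. With each tumor left out they ranged from 0.35 to 2.46 and from 1.16 to 3.22, highest without saline tumor 2. The summed level of 6 T cell markers was 4.35 to 12.9 CPM in saline, 2.35 to 22.0 CPM in i.v. TLZ and 15.7 to 34.3 CPM in NanoTLZ, and its part in *Tnfsf11* was not tested. *Prom1* (chr5:43993620-44102032, minus strand) had 83.9, 45.5 and 10.1 CPM in saline, 17.1, 85.3 and 44.0 CPM in i.v. TLZ and 29.5, 10.4 and 44.3 CPM in NanoTLZ. The groups overlapped, and the NanoTLZ tumors reached 44.3 CPM at most, with log2 fold changes of 0.07 (SE 0.78) and -0.73 (SE 0.78). Reads of antisense partners cannot be told apart, since the strand setting is not given. Over all tumors, *Gm16401*, antisense to *Prom1*, had 45 reads against 7026 for *Prom1*, and *Gm13256* and *9230102O04Rik*, which overlap exons of *Gata3*, had 3 and 83 against 6971. *Greb1* had 444 reads in all. Its antisense partner *Gm48140*, which overlaps its exons, is not among the counted genes, so its part in the *Greb1* reads could not be checked.

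**Figure D4:**
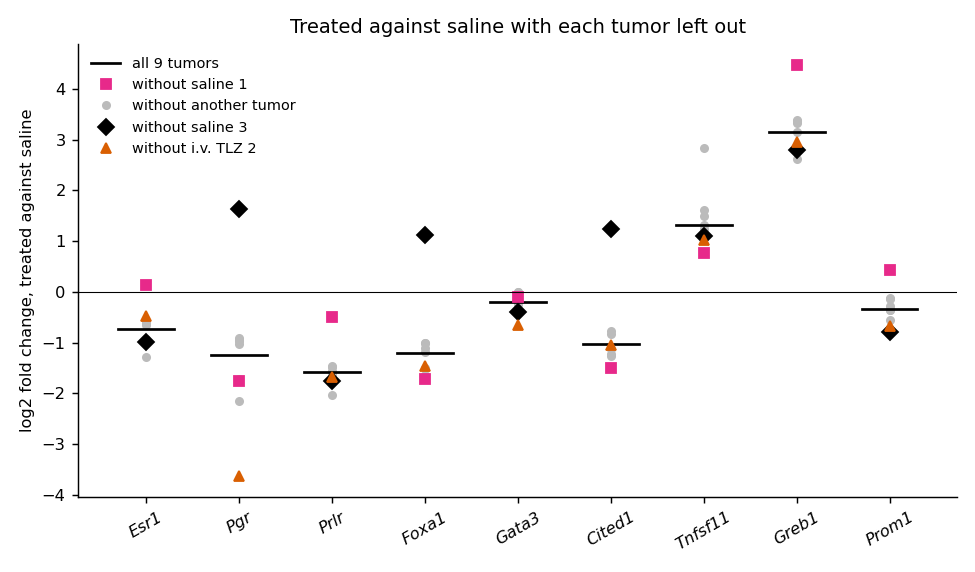
Log2 fold change of each gene with both treatments against saline, with all 9 tumors (lines) and with each tumor left out (points). Leaving out saline tumor 3 (diamonds) moves *Pgr*, *Foxa1* and *Cited1* above 0, leaving out saline tumor 1 (squares) moves *Esr1* and *Prom1* above 0, and *Greb1* stays between 2.61 and 4.48.

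How far the members moved together was tested over the 9 tumors with 36 pairs, by exact permutation. The tumors come from 3 groups, within which 3 tumors are too few for a correlation. *Cited1* and *Prom1* had a Pearson r of -0.768 (exact permutation p = 0.0162, adjusted 0.395) and a Spearman rho of -0.65 (p = 0.0666, adjusted 0.772). Without the 2 tumors farthest from the median of *Cited1* r was -0.695. *Esr1* and *Pgr*, receptor and target, had a Pearson r of -0.742 (exact permutation p = 0.0219, adjusted 0.395) and a Spearman rho of -0.683 (p = 0.0503, adjusted 0.772). Without the 2 tumors farthest from the median of *Esr1* the Pearson r was -0.514. The tumor with the highest *Pgr* had the lowest *Esr1* of all 9. *Gata3* and *Prom1* had r = 0.668 (exact permutation p = 0.0543, adjusted 0.549) and rho = 0.75 (p = 0.0255, adjusted 0.772), with r = 0.92 without the 2 tumors farthest from the median of *Gata3*. No pair passed the Benjamini-Hochberg adjustment. *Esr1* and *Foxa1* did not rise together, at r = -0.365 (exact permutation p = 0.325, adjusted 0.837) and rho = -0.5 (p = 0.178, adjusted 0.827).

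**Figure D5:**
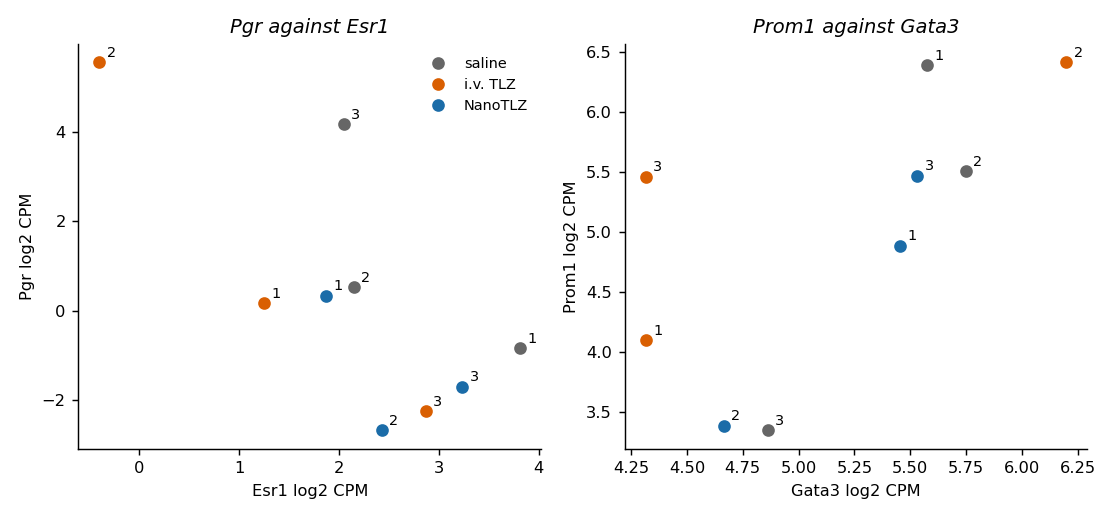
*Pgr* against *Esr1* and *Prom1* against *Gata3*, in log2 CPM, for 9 tumors coloured by group and numbered. *Pgr* is highest in the i.v. TLZ tumor 2, where *Esr1* is lowest, and *Gata3* and *Prom1* are both highest there.

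For each member, the 3 genes with the most similar log2 CPM over the 9 tumors were found, by Pearson r, among all tested genes, and those reported here follow. These are the highest of very many values and carry no test. Those of *Greb1* were *Mmp3* (r = 0.922), *Syt17* (0.888) and *Mmp10* (0.887), of which *Mmp3* and *Mmp10* encode matrix-degrading proteases and ranged from 0.780 to 164 CPM and from 0.184 to 82.7 CPM. For *Pgr* they were *Slc2a3*, a glucose transporter (0.958), *B130055M24Rik* (0.940) and *Tmem165* (0.931), and for *Esr1* *Cryzl1* (0.966), *Marf1* (0.958) and *Slc5a9* (0.955). *Prlr* was closest to *Ikzf2* (0.968), *Cul4b* (0.966) and *Vav3* (0.944), and *Foxa1* to *Gm2420* (0.972), *Mapk1ip1* (0.963) and *2310009B15Rik* (0.955). *Gata3* was close to *Tgoln1* (0.941) and *Itga2* (0.899), and *Cited1* to *Dlx4* (0.954), *Sh3tc2* (0.952) and *Enho* (0.948). *Tnfsf11* was closest to *Arhgap4* (0.978), *Lpar6* (0.966) and *Ndufa3* (0.937), and *Prom1* to *Per2*, a repressor of the circadian clock (0.970), *Fam76a* (0.950) and *D930015M05Rik* (0.937). None of these genes is another member.

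The other genes of these pathways were counted with both treatments against saline, where none was called by edgeR's test and 13.1% of all tested genes had an unadjusted p under 0.05. Among steroid and nuclear receptors, 15 of 17 were tested, 9 were higher and 6 lower, and 1 had an unadjusted p under 0.05. Among coregulators of the estrogen receptor and luminal transcription factors, 16 of 17 were tested and 15 had a negative value, with a median log2 fold change of -0.48 against -0.06 over all genes, and 5 had an unadjusted p under 0.05, all lower. *Med1*, a Mediator subunit that binds nuclear receptors, had all 6 treated tumors below the saline tumors, as in 2.66% of tested genes. *Med1* was at 140.3 ± 15.01 CPM in saline, 76.8 ± 17.7 CPM in i.v. TLZ and 114 ± 11.6 CPM in NanoTLZ (SD, n = 3 each). The margin was narrow, with NanoTLZ tumor 2 at 121.9 CPM and saline tumor 3 at 123.0 CPM. The log2 fold change of *Med1* was -0.58 (SE 0.21), with a Benjamini-Hochberg adjusted p of 0.315 in edgeR. It was -0.87 (SE 0.25) with i.v. TLZ and -0.30 (SE 0.25) with NanoTLZ.

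Downstream of *Prlr*, 9 of 11 genes of the prolactin pathway were tested. The hormone gene *Prl* had at most 1 read in a tumor. *Jak2*, *Stat5a* and *Stat5b*, which carry the signal, had log2 fold changes of -0.22 (SE 0.36), -0.44 (SE 0.48) and -0.01 (SE 0.38). *Elf5* is the alveolar and luminal progenitor factor that prolactin induces. It was at 79.2 ± 21.1 CPM in saline, 35.9 ± 4.84 CPM in i.v. TLZ and 43.2 ± 8.67 CPM in NanoTLZ (SD, n = 3 each). All 6 treated tumors lay below the saline tumors, as in 2.66% of tested genes. *Elf5* is among the 8 luminal progenitor and alveolar markers given beside *Prlr*. Its log2 fold change was -1.01 (SE 0.24), with an unadjusted p of 0.00156 and a Benjamini-Hochberg adjusted p of 0.271 in edgeR. *Tnfrsf11a*, the receptor of Tnfsf11, and *Tnfrsf11b*, its decoy, had values of -0.28 (SE 0.48) and -0.22 (SE 0.60), and none of the 8 genes of the RANK pathway had an unadjusted p under 0.05. Among secreted factors, *Wnt4*, which progesterone induces, was at 74.3 and 94.6 CPM in i.v. TLZ tumors 1 and 2 and at 14.2 to 22.2 CPM in the other 7 tumors. *Areg*, an estrogen-induced ligand, was highest in the same i.v. TLZ tumor 2 as *Pgr*, at 75.3 CPM, against 10.4 to 38.7 CPM in the others. Saline tumor 3, next in *Pgr* at 17.8 CPM, had the lowest *Areg* (10.4 CPM) and the lowest *Wnt4* (14.2 CPM). The i.v. TLZ tumor 1, with high *Wnt4*, had *Pgr* at 1.02 CPM. Of 12 genes related to the members by family, 10 were tested and none had an unadjusted p under 0.05.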

How the data were processed

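RNA of tumor pieces was sequenced in 9 tumors, 3 per group. The deposited values are counts of reads on each gene, which the authors left unnormalized. The submitters' processing notes name TopHat2, DESeq2 and mm10, and the counting program, annotation and strand setting are not given in the sources used here. Symbols came from GENCODE M21, in which 34490 of 35275 identifiers were found. Genes were kept by filterByExpr of edgeR (minimum count 10, minimum total 15), scaled by TMM, and fitted with 1 coefficient per group on all 9 tumors by the quasi-likelihood method of edgeR 4.0.16 in R 4.3.3, with Benjamini-Hochberg adjustment over 15821 genes. The common biological coefficient of variation was 49.8%. Alternatives were RLE and upper quartile scaling, DESeq2 1.42.0, edgeR on the groups compared, other filters and each tumor left out. The scripts were tested on simulated data. Log2 CPM used a prior count of 2, and 3 counts were taken as the floor. The genes described and the lists were chosen with earlier results of these data known. Beside the 9 genes, those named are list genes whose 6 treated tumors lay on 1 side of the saline tumors, a fixed set of receptors and signalling genes, and the 3 most similar genes of each member. Some genes that these rules name are not reported here.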

Additional observations from a re-analysis of the deposited data

Results flagged for a closer look

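In 2 of the 9 genes, the highest of the 6 treated tumors stood apart by Dixon's criterion. Chance meets it in about 1 in 20 groups when the values of a single group are normally distributed. Here the gaps were taken on CPM, over both treated groups together and in 9 genes, so that rate does not hold. *Pgr* was at 46.6 CPM in i.v. TLZ tumor 2, with a gap of 0.976 of the whole range of the treated tumors. *Greb1* was at 10.5 CPM in NanoTLZ tumor 1, with a gap of 0.777 of that range. On log2 CPM the gap of *Greb1* takes a smaller share of the range. Its log2 CPM was 3.41 in NanoTLZ tumor 1, 1.66 in the next treated tumor and 0.03 in the lowest.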

How the results depend on the processing

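Of 214 results recomputed with another scaling, filter, tool or set of tumors, 211 kept their direction and their side of the threshold (6 of them, all of *Pgr*, had no DESeq2 p-value and kept a direction alone), 3 passed it and 0 reversed. Members called rose from 0 to 1, *Greb1*, in NanoTLZ against saline with DESeq2 on all 9 tumors and on the groups compared (log2 fold change 3.85 in both), and from 0 to 1 with both treatments against saline with DESeq2 on all 9 tumors (3.18). The cause was not tested. A filter of 10 counts in every tumor left no value for *Pgr*, *Foxa1*, *Cited1*, *Tnfsf11* and *Greb1*. With each tumor left out, 24 of 324 values changed sign and none passed the threshold. Log2 fold changes that changed sign ranged as follows. With i.v. TLZ against saline, *Pgr* from -3.51 to 4.15, *Foxa1* from -1.88 to 0.95, *Gata3* from -1.13 to 0.12, *Cited1* from -1.79 to 0.96 and *Prom1* from -0.61 to 0.82. With NanoTLZ against saline, *Esr1* from -0.71 to 0.56, *Foxa1* from -1.67 to 1.29, *Gata3* from -0.37 to 0.08, *Cited1* from -1.22 to 1.53 and *Prom1* from -1.19 to 0.04. With NanoTLZ against i.v. TLZ, *Foxa1* from -0.32 to 0.84 and *Gata3* from -0.28 to 0.96. With both treatments against saline, *Esr1* from -1.29 to 0.13, *Pgr* from -3.63 to 1.64, *Foxa1* from -1.71 to 1.12, *Cited1* from -1.50 to 1.24 and *Prom1* from -0.78 to 0.43. The values that kept their sign under this include those of *Greb1* (2.07 to 5.15 against saline) and *Prlr*. No paired analysis was possible because the labels give no numbers that pair tumors between groups. Low counts limit *Greb1*, with 3 reads in each of 2 saline tumors, and *Pgr*, with 1 read in a NanoTLZ tumor.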
